A study of Mus musculus with 294 samples.

Results

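In this single-cell study of the embryonic mouse heart, 53 cells had mRNA of the matrix proteoglycans Dcn and Lum above set levels. Their mRNA of the smooth muscle actin Acta2 was below a set limit. These cells were 18.03% of all those sequenced (exact Clopper-Pearson 95% interval 13.8 to 22.9). They were chosen by level in counts per 1000000 reads of the cell (CPM): Dcn and Lum both at 100 CPM or more, Acta2 below 100 CPM and Sox10, a glial and early neural crest regulator, below 10 CPM. The cells are called here Dcn and Lum cells without Acta2, where without means below 100 CPM and not a lack of all reads. The remaining 81.97% of cells served for comparison, among them 76 that also had Acta2 below 100 CPM and Sox10 below 10 CPM, and 82 that had Dcn and Lum at 100 CPM or more together with Acta2 at 100 CPM or more and Sox10 below 10 CPM.

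All cells share one genotype, with a Wnt1-Cre driver and an R26-EYFP reporter that marks descendants of Wnt1-expressing cells, chiefly the neural crest, and all were sorted for EYFP from tissue around the septum of the outflow tract. Each was captured on a Fluidigm C1 chip and imaged before full-length cDNA was made, and no doublet caller was run. The study ran from embryonic day 11.5 to day 17.5, with days 12.5 and 14.5 between them, but no label ties a cell to a stage, an animal or a chip. Cells of one animal are not replicates, so all cells together count as 1 sample, nothing below carries a p-value, and intervals on shares cover counting error only.

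Cells were compared within a name series, here the cells whose names begin with the same digit. What that digit stands for is not given in the sources used here. Dcn and Lum cells without Acta2 made up 16 of 48 cells in series 2 (33.3%), 15 of 38 in series 3 (39.5%) and 7 of 44 in series 7 (15.9%). There were 3 of 38 in series 4, 2 of 34 in series 5, 4 of 34 in series 6 and 6 of 58 in series 1, so 47 cells lay in series 2 to 7. The shares of other cells given below are over the 32, 23, 35, 32, 30 and 37 other cells of series 2 to 7. Shares over the 47 cells and over these others are pooled and not taken within a series. Series 2 and 3 hold 16 and 15 of the 47 cells but 32 and 23 of the others. The mix of series thus differs between 2 pooled shares, and its part in a gap between them was not tested. Series 1 is shown apart, because 13.6% of all genes had at least 1 read in every one of its cells, against 0.866% to 1.81% in each other series, so low values there can be reads shared between libraries. Total reads ran from 177023 to 3000016 in the Dcn and Lum cells without Acta2 and from 34046 to 3033857 in the others, and no 2 cells had identical counts.

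Decorin (Dcn) and lumican (Lum) are small leucine-rich proteoglycans, proteins that bind collagen fibrils outside the cell and govern how thick the fibrils grow. Both are widely used to mark fibroblasts, and in the developing outflow tract they are also made by mesenchyme of the endocardial cushions, the swellings that become the valves and the septum. Neural crest cells that enter the outflow tract contribute both to that mesenchyme and to the smooth muscle of the great vessels, and Acta2, with the other contractile genes that the factor SRF drives through a DNA element called the CArG box, marks the muscle fate.

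Dcn, Lum and another proteoglycan gene, Epyc, lie on the plus strand of one stretch of chromosome 10, at chr10:97479609-97518143, chr10:97565128-97572703 and chr10:97644068-97682454 (GRCm38, GENCODE). Acta2 lies at chr19:34241090-34255590 on the minus strand. Among the 23 genes of a smooth muscle contractile list that passed the filter on low values, 17 had a promoter sequence in the RefSeq table for GRCm38.p6. In the 250 bases before the annotated start, a CArG box (its consensus reads the same on both strands) was found in 1 of the 17, the myosin light chain gene Myl9 (5.88%), against 1.47% of all 32851 promoters. The first share counts genes and the second counts promoters, so they are not like for like. Contractile genes without a promoter sequence there were not searched. The stretch is shown because Myl9 is one of the contractile genes whose levels are described below, with the box in capitals, from base 56 of the 120 shown (chr2:156775248-156775367, plus strand).
Myl9 promoter: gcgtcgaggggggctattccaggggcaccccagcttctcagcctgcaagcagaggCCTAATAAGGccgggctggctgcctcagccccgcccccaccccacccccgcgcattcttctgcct
A match to the consensus is a description of the sequence and not a site shown to be used.

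The genes of the rule chose the cells, so their levels are given as a description. Dcn in these cells had a lowest, median and highest level of 1107, 7592 and 21684 CPM in series 2, of 182.6, 1386 and 7035 CPM in series 3 and of 310.5, 930.1 and 1080.5 CPM in series 7. Lum stood at 175.1, 4645 and 10392 CPM in series 2, at 132.6, 1229 and 13307 CPM in series 3 and at 539, 1951 and 15280 CPM in series 7. Among series 2 to 7 the highest Dcn level was thus in series 2 and the highest Lum level in 1 cell of series 7. In series 4 the 3 cells had 568.9, 638.3 and 600.6 CPM of Dcn, in series 5 the 2 cells had 425.5 and 1136 CPM, and in series 6 the 4 cells had 775.3, 317.4, 669.9 and 579.8 CPM.

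The Acta2 limit was met with room to spare outside series 1. Acta2 was at or below 1.68 CPM in all 15 cells of series 3, at or below 13.7 CPM in series 7, at or below 1.24 CPM in the 9 cells of series 4 to 6 and between 0 and 60.3 CPM in series 2. In series 1 all 6 cells lay between 43.4 and 90.04 CPM. Among cells meeting the other conditions, the 2 just under the Acta2 limit had 90.04 and 75.2 CPM and the 2 just over it 108.7 and 134.8 CPM. For Dcn the nearest values outside were 72.97 and 43.99 CPM and inside 182.6 and 228.6 CPM, for Lum 3.59 and 3.40 CPM outside and 132.6 and 175.1 CPM inside. The Sox10 limit removed 2 cells, with 94.1 and 338.5 CPM, and the highest Sox10 level among the cells kept was 0.637 CPM.

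**Figure D1:**
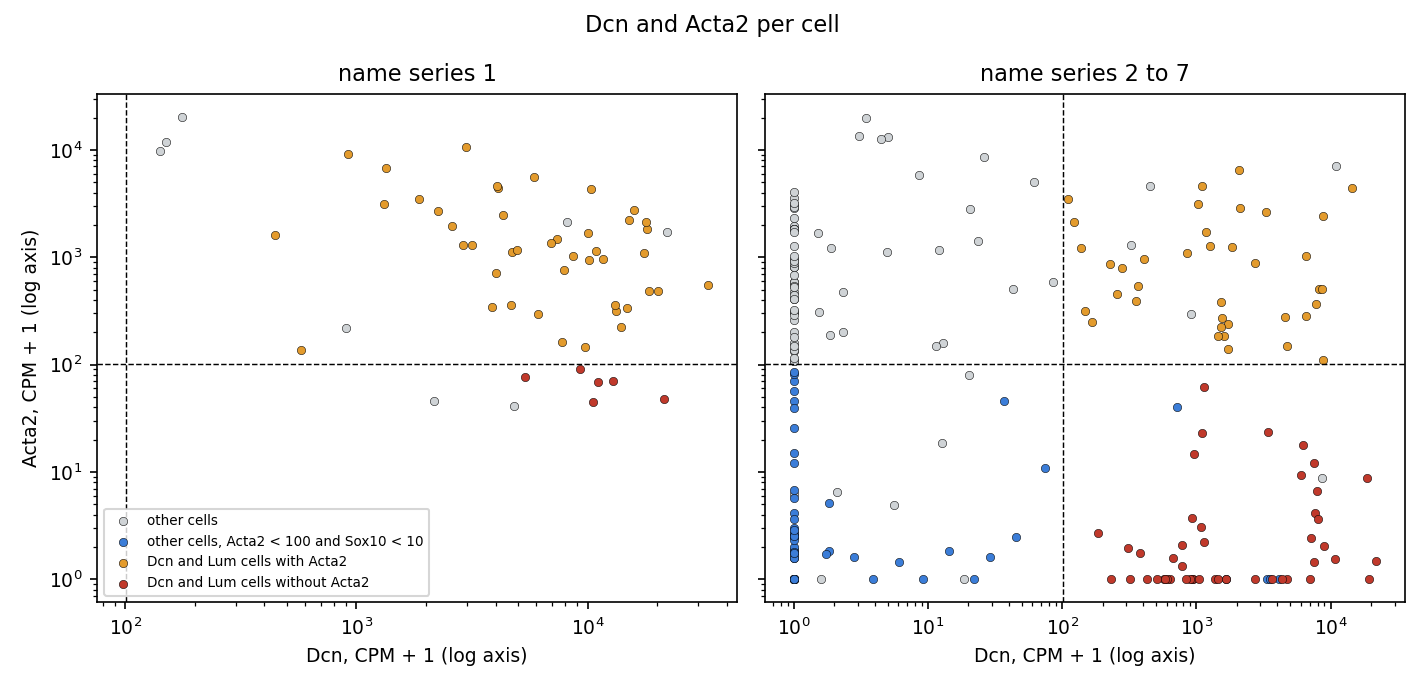
Dcn (horizontal) against Acta2 (vertical) in each cell, CPM + 1 on log axes, for name series 1 (left) and 2 to 7 (right), with the 100 CPM limits dashed. The Dcn and Lum cells without Acta2 (red) of series 2 to 7 reach at most 60.3 CPM of Acta2, while the 6 of series 1 run from 43.4 to 90.04 CPM.

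The name fibroblast was checked against marker genes that the rule did not use. Of 16 fibroblast markers compared, 2 were 2-fold or more higher in Dcn and Lum cells without Acta2 than in all other cells of their series, Pdgfra and Tcf21, and 2 were lower, Col14a1 and Cd34, with a median log2 ratio of 0.03. A ratio here is the log2 of the mean CPM in one set over that in the other, with 10 CPM added to both, averaged over the series that had at least 5 cells of each set, which were series 2, 3 and 7. A gene counts as higher or lower where this mean reached 1 in size with the same sign in every series used. Over the 9582 genes that averaged at least 10 CPM, 2.36% were higher and 8.43% were lower, with a median of −0.15, so the fibroblast list as a whole did not stand out in one direction, and the cells are called by their rule and not as fibroblasts.

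Col1a1, the main chain of type I collagen, and Abi3bp, a matrix-binding protein, had been put forward as further markers of these cells. Col1a1 was at 10 CPM or more in all 47 of the cells in series 2 to 7 and in 95.2% of the others. Its lowest, median and highest level was 142.6, 1455 and 17122 CPM in series 2, against 1.98, 1896 and 12097 CPM in the other cells, and 13.8, 91.02 and 486.8 CPM in series 7, against 18.2, 386.3 and 3789.7 CPM. The ranges overlapped, and the mean log2 ratio was −0.51, from 0.05 in series 2 to −1.17 in series 7.

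Abi3bp was common in cells of series 1 to 3 and rare or absent in the others. It reached 10 CPM in 11 of 16 Dcn and Lum cells without Acta2 in series 2, in 9 of 15 in series 3 and in all 6 in series 1, but in 0 of 7 in series 7, which allows a share of up to 42.9%, and in 0 of 9 in series 4 to 6. In all other cells of series 7 it was at 0 too, and in those of series 4 to 6 it reached 10 CPM in 4 of 97. Its log2 ratio was 0.61 in series 2, −0.57 in series 3 and, with both sets at 0, 0 in series 7, while series 1 had 1.39, so the direction differed between the series.

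Pdgfra, the receptor for platelet-derived growth factor A and a general marker of mesenchyme, was present in most cells of both sets with series 2 to 7 pooled. In Dcn and Lum cells without Acta2 its lowest, median and highest level was 0, 196.3 and 1466 CPM in series 2, 0, 424.7 and 2578 CPM in series 3 and 54.1, 506.1 and 2302 CPM in series 7. The other cells had 0, 0 and 571.4 CPM in series 2, 0, 150.2 and 1252 CPM in series 3 and 0, 381.8 and 2602 CPM in series 7. The medians were higher in each series while the ranges overlapped in all 3, and the mean log2 ratio was 1.15 (1.79, 1.23 and 0.44). It was at 10 CPM or more in 85.1% of the 47 cells (95% interval 71.7 to 93.8) and in 75.7% of the others (68.9 to 81.6).

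Tcf21, a transcription factor of cardiac fibroblast precursors and of the epicardium, owed its mean log2 ratio of 1.77 mostly to series 2. There it was at 10 CPM or more in 9 of 16 cells, with a highest level of 2312 CPM, against 6 of 32 others, which reached 188.1 CPM. In series 3 the counts were 5 of 15 and 4 of 23, and in series 7 5 of 7 and 25 of 37, with log2 ratios of 0.32 and 0.61 beside 4.37 in series 2.

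**Figure D2:**
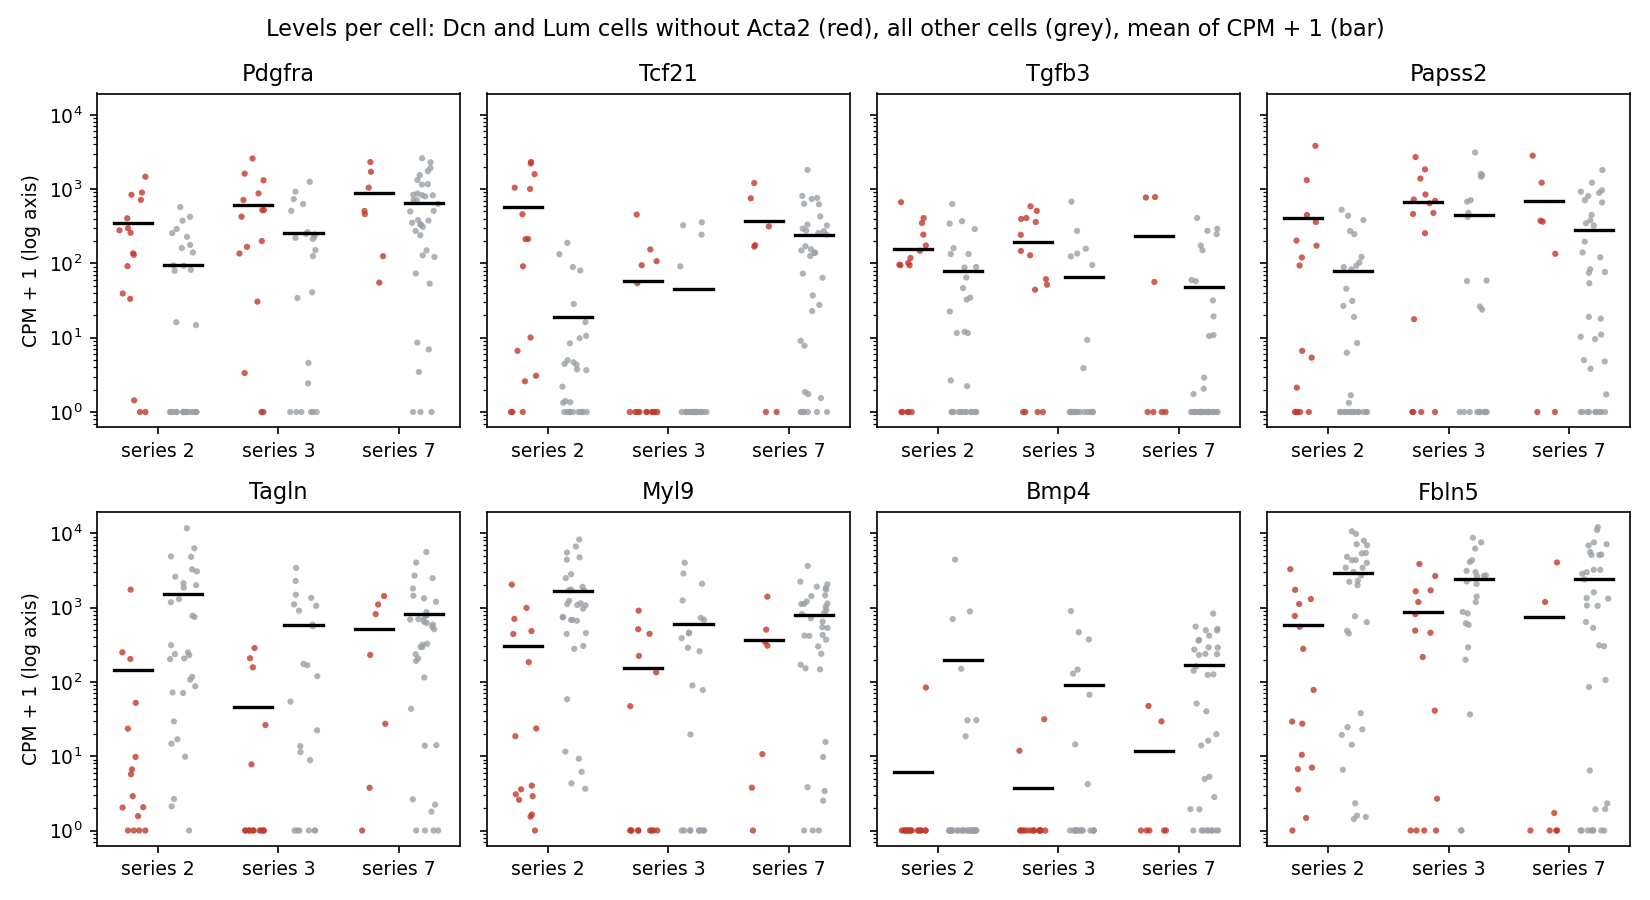
CPM + 1 per cell on a log axis for 8 genes in name series 2, 3 and 7, with Dcn and Lum cells without Acta2 in red, all other cells in grey and bars at the mean. The red means lie above the grey ones for the upper 4 genes and below them for the lower 4, and the points of both sets overlap for every gene.

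The contractile genes were the list with the largest share of lower genes among lists with at least 5 genes compared. Of 23 smooth muscle contractile genes, 11 were lower in Dcn and Lum cells without Acta2 than in all other cells and 0 were higher, against 8.43% and 2.36% of all genes, with a median log2 ratio of −1.28. One of the 11 is Acta2 itself (mean log2 ratio −6.41), which the rule fixed, and the low values of genes that go with it follow in part from that choice, since both sets of values come from the same cells. The others were Tagln, Cnn1, Myl9, Actg2, Tpm1, Tpm2, Tm4sf1, Myh11, Mylk and Des, the last 3 named after their values were seen.

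Tagln encodes transgelin, an actin-binding protein of smooth muscle. Its lowest, median and highest level was 0, 3.31 and 1742 CPM in Dcn and Lum cells without Acta2 of series 2, 0, 0 and 284.8 CPM in series 3 and 0, 229.3 and 1426 CPM in series 7. The other cells had 0, 241.2 and 11678 CPM, 0, 118.3 and 3418 CPM, and 0, 510.6 and 5582 CPM. Series 7 was the exception in size, with a log2 ratio of −0.65 beside −3.32 and −3.41, and the mean was −2.46. In the small series Tagln was at 213.3, 1024 and 0 CPM in the 3 cells of series 4 and at 0 in all 6 cells of series 5 and 6.

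Myl9, the regulatory light chain of smooth muscle myosin, had 0, 10.3 and 2036 CPM in series 2, 0, 0 and 908.1 CPM in series 3 and 0, 305.8 and 1402 CPM in series 7. In the other cells these values were 2.65, 1018 and 8223 CPM, 0, 88.5 and 4008 CPM, and 0, 544.5 and 3630.3 CPM. All medians were lower in Dcn and Lum cells without Acta2, the ranges overlapped, and the mean log2 ratio was −1.81. Actg2, the gamma smooth muscle actin, was the cleanest case, at 10 CPM or more in 0 of 47 cells (up to 6.38% allowed) with a highest level of 0.530 CPM, against 23.3% of the others (17.5 to 29.96). Its mean log2 ratio of −4.03 depends on the 10 CPM added.

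Counting 5 of these genes together (Tagln, Myl9, Cnn1, Tpm2 and Actg2), 15 of the 47 cells (31.9%, 19.1 to 47.1) had none at 100 CPM, against 11.6% of the others (7.44 to 17.1). The direction differed between series. It was 7 of 16 cells against 3 of 32 others in series 2, and 2 of 7 against 1 of 37 in series 7. In series 3 it was 3 of 15 against 6 of 23, a lower share. Series 4, 5 and 6 had 0 of 3, 0 of 2 and 3 of 4, against 3 of 35, 2 of 32 and 7 of 30. Conversely 3 of the 47 (6.38%) had 3 or more at 100 CPM, and all 3 were among the 7 cells of series 7, against 51.9% of the others. The remaining Dcn and Lum cells without Acta2 had 1 or 2 of the 5 genes at that level. Outside the list, Tnnc1 and Cryab, a troponin subunit and a small heat shock protein abundant in muscle, had mean log2 ratios of −3.40 and −2.68, with Cryab at 10 CPM in 12.8% of the cells and 31.7% of the others.

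**Figure D3:**
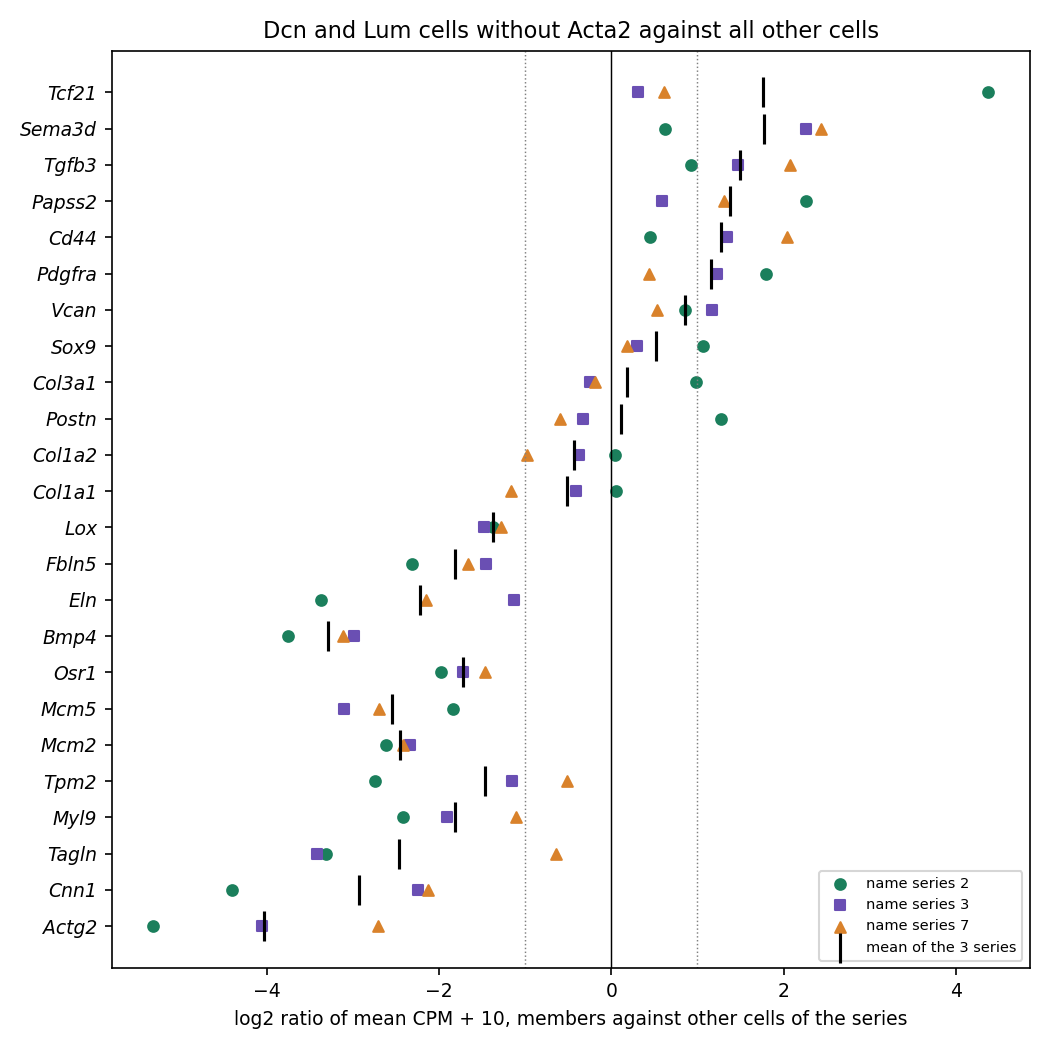
Log2 ratio of mean CPM (10 CPM added) of Dcn and Lum cells without Acta2 over all other cells, for 24 genes in name series 2 (circle), 3 (square) and 7 (triangle), with the mean of the 3 as a bar and dotted lines at 2-fold. The contractile, elastic fibre and MCM genes plotted lie left of 0 and Pdgfra, Tgfb3 and Papss2 right of 0 in all 3 series, while Col1a1 runs from 0.05 to −1.17.

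Matrix genes did not move as one block. Of 9 small leucine-rich proteoglycan genes 2 were higher, and these were Dcn and Lum, by which the cells were chosen, so they are no result. Epyc was lower (−1.12) despite its place beside Dcn and Lum on chromosome 10. Epyc turned to 0.20 with every cell thinned to 200000 reads. None of the others was called, with ratios of 0.69 for Aspn, 0.78 for Prelp and −0.52 for Bgn, of which Aspn and Bgn were named after their values were seen. Of 7 fibrillar collagen genes 0 were higher and 0 lower, with a median of 0.15, and Col1a2 and Col3a1 had ratios of −0.44 and 0.18.

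Among 14 other collagen genes 3 were lower, Col4a6 (−1.95), Col12a1 (−1.59) and Col14a1 (−1.41), a basement membrane chain and a pair of fibril-associated collagens, and 0 were higher. The share of lower genes was 21.4%, against 8.43% of all genes. Of 20 genes for collagen processing 2 were lower (10%), and these were Lox (−1.37), whose enzyme crosslinks collagen and elastin, and Adamts2 (−1.20), a procollagen protease. Lox was at 10 CPM in 34.04% of the 47 cells and 55.6% of the others.

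Elastic fibre genes had 3 lower (18.75%, against 8.43% of all genes) and 0 higher of 16. Eln, the gene of elastin itself, had a mean log2 ratio of −2.22, yet it was found at 10 CPM in more Dcn and Lum cells without Acta2 (85.1%, 71.7 to 93.8) than other cells (59.3%, 51.9 to 66.3). Its highest level was 4039.7 CPM in the former and 74743 CPM in the latter, so the ratio of means rests on other cells with very high elastin. Fbln5, a fibulin that guides elastic fibre assembly, was at 0, 52.6 and 3288 CPM in series 2, 0, 456.7 and 3862 CPM in series 3 and 0, 0 and 4047 CPM in series 7.
The other cells had 0.427, 2257 and 10642 CPM, 0, 2080.1 and 8708 CPM, and 0, 1054 and 12081 CPM of Fbln5. Here medians and means were both lower in every series, with a mean log2 ratio of −1.81. In series 1, however, the ratio was 0.35, and Ltbp1 (−1.14 in series 2, 3 and 7), a protein that stores TGF-beta in the matrix, reached 1.47 there.

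Among genes of the endocardial cushion and valve, Postn, Vcan and Sox9 were present in most cells of both sets. Postn, the matrix protein periostin, was at 10 CPM in all 47 cells and in 96.8% of the others, and Vcan, the proteoglycan versican, in 97.9% and 93.7%, with ratios of 0.12 and 0.86. Sox9, a regulator of valve and cartilage matrix genes, was at 10 CPM in 91.5% and 82.5%, with a ratio of 0.52. Of 21 genes in this list 2 were higher, Papss2 and Cd44 (9.52%, against 2.36% of all genes), and 1 was lower, Bmp4 (4.76%, against 8.43%).

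Papss2 makes the sulfate donor used to sulfate proteoglycan chains. Its lowest, median and highest level was 0, 49.2 and 3819 CPM in series 2, 0, 476.3 and 2695 CPM in series 3 and 0, 362.98 and 2812 CPM in series 7, against 0, 2.97 and 525.7 CPM, 0, 22.9 and 3102 CPM, and 0, 53.05 and 1804 CPM in the others. All 3 medians were higher and the mean log2 ratio was 1.38, and in series 1 it was 2.56. Cd44, the hyaluronan receptor, had a ratio of 1.28 from a few cells with high values. It was at 10 CPM in 21.3% of the cells and 28.6% of the others, and its ratio turned to −0.70 once series with 3 or more cells of each set were used.

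Bmp4, a ligand of the bone morphogenetic protein family, had a median of 0 in these cells in all 3 series. It was at 10 CPM in 7 of 47 Dcn and Lum cells without Acta2 (14.9%, 6.20 to 28.3) and in 40.7% of the others (33.7 to 48.1), and its highest level was 82.9 CPM in series 2, 30.4 CPM in series 3 and 46.4 CPM in series 7, against 4413, 897.2 and 830.4 CPM. Higher levels were found in 1 cell of series 5 (336.6 CPM) and 1 of series 6 (182.9 CPM). The mean log2 ratio was −3.28, while series 1 ran the other way at 1.09.

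Tgfb3, a ligand of the TGF-beta family, went the opposite way. It was at 10 CPM in 29 of 47 Dcn and Lum cells without Acta2 (61.7%, 46.4 to 75.5) and in 28.04% of the others (21.8 to 35.02). Its lowest, median and highest level was 0, 97.8 and 663.6 CPM in series 2, 0, 127.5 and 584.9 CPM in series 3 and 0, 0 and 780.6 CPM in series 7, against 0, 10.5 and 628.4 CPM, 0, 0 and 677.01 CPM, and 0, 0 and 407.9 CPM. The sets overlapped in each series, with a mean log2 ratio of 1.49 (0.93, 1.47 and 2.08), but −0.48 in series 1. Among 25 BMP and TGF-beta genes it was the 1 that was higher, and Bmp4 and Ltbp1 were the 2 that were lower. These shares, 4% and 8%, were near the 2.36% and 8.43% of all genes.

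Other signalling lists held few calls. Sfrp2, a secreted Wnt modulator, was the 1 lower gene of 17 Wnt modulators (−1.13), and Igfbp2, a binding protein of insulin-like growth factors, the 1 of 12 in its list (−2.14), at 10 CPM in 1 of 47 cells (2.13%) and 12.7% of the others. The shares of lower genes in these lists, 5.88% and 8.33%, did not exceed the 8.43% of all genes. Of 11 chemokine, complement and innate genes and of 27 immediate early and heat shock genes 0 were called in either direction.

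Among 36 mesenchymal and outflow transcription factors, Tcf21 was higher (2.78%) and 4 were lower (11.1%), against 2.36% and 8.43% of all genes. The 4 lower were Osr1 (−1.72), Tbx18 (−1.63), Foxc2 (−1.24) and Foxp1 (−1.20), the last named after its values were seen. Osr1, a factor of second heart field and mesenchymal progenitors, was at 10 CPM in 2 of the 47 cells (4.26%) and in 13.8% of the others.

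The cell cycle genes that were lower all act at the start of DNA replication. Of 30 cell cycle genes 5 were lower (16.7%, against 8.43% of all genes) and 0 higher, with a median of −0.47. The 5 were Mcm5 (−2.55), Mcm2 (−2.46), Mcm7 (−1.89), Cdt1 (−1.58) and Ccne2 (−1.05), with Cdt1 and Ccne2 named after their values were seen. Mcm5 was at 10 CPM in 10.6% of the 47 cells (3.55 to 23.1) and in 31.7% of the others (25.2 to 38.9). The proliferation marker Mki67 was at 10 CPM in 25.5% and 30.2%, with a ratio of −0.36. Of 6 genes of the dividing cell, 3 or more were at 10 CPM in 12 of 47 cells (25.5%, 13.9 to 40.3) and in 31.7% of the others (25.2 to 38.9), and in series 7 in 4 of 7 cells and 11 of 37.

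The remaining matrix, adhesion and growth lists had shares of lower genes near those of all genes. Of 18 matrix remodelling genes 2 were lower, Plat (−1.63) and Adamts5 (−1.39), and of 31 basement membrane and adhesion genes 3 were lower, Itga4 (−2.05), Nov (−1.83) and Hspg2 (−1.13). Hspg2, the basement membrane proteoglycan perlecan, was at 10 CPM in 44.7% of the 47 cells and 65.6% of the others. Of 15 genes linked to fetal immaturity 2 were lower, Igf2bp1 (−1.14) and Igf2bp3 (−1.01), which encode RNA-binding proteins, and of 10 cartilage and tendon genes 1 was, Matn2 (−1.58).

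**Figure D4:**
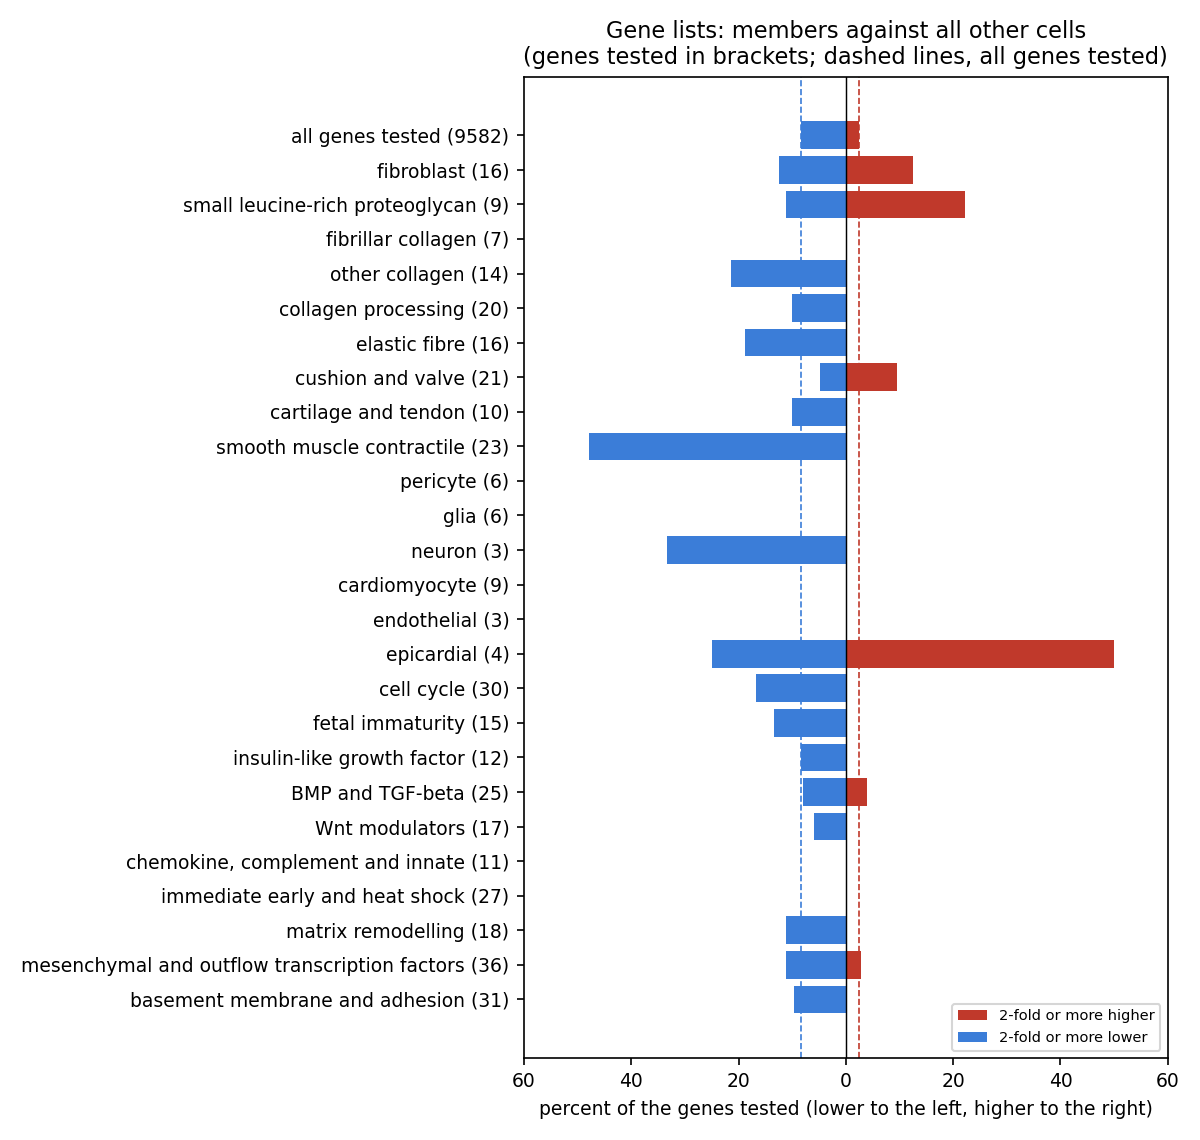
Percent of the genes compared in each list that were 2-fold or more higher (right, red) or lower (left, blue) in Dcn and Lum cells without Acta2 than in all other cells. Dashed lines mark 2.36% higher and 8.43% lower for all genes, and the smooth muscle contractile list reaches furthest to the left.

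Markers of other cell types were looked for in the same way, over series 2 to 7. Of 13 glial markers measured, 4 reached 10 CPM in any of the 47 cells. The summed level of the 13 ran from 0 to 438.9 CPM with a median of 0, against 0 to 16075 CPM in the others. Sox10 is among the 13, and the rule kept it below 10 CPM, so it could not reach that level. The part of this choice in the other glial values was not tested. Foxd3, Cdh19 and Sox2 had no read in the 47 cells. Of 14 cardiomyocyte markers 9 reached 10 CPM in some cell, with sums of 0 to 1499 CPM against 0 to 59956 CPM, and Myh6, Nppa, Actn2 and Nkx2-5 had no read. Neuronal sums reached 1258 CPM with 6 of 9 markers present, against 2437 CPM, with Dbh without a read, and melanocyte sums 538.3 CPM with 2 of 5 markers, against 218.3 CPM, with Tyr without a read.

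Pericyte markers summed to 0 to 2121 CPM with a median of 292.3 CPM and 9 of 10 present, against 0 to 4612 CPM with a median of 326.4 CPM, and Higd1b had no read. Endothelial sums ran to 3361 CPM with a median of 36.2 CPM and 7 of 8 present, against 2003 CPM and 87.2 CPM, and epicardial sums to 6082 CPM with a median of 321.5 CPM and 6 of 7 present, against 4511 CPM and 236.1 CPM, with Krt19 without a read. Of the blood and immune markers 1 of 3 was present, up to 147.4 CPM against 207.9 CPM. By the rule for a call, 0 of 6 pericyte, 0 of 6 glial, 0 of 9 cardiomyocyte and 0 of 3 endothelial genes were called in either direction. That is not a lack of difference, since the median log2 ratios were −1.43 for the glial and −1.26 for the cardiomyocyte genes. A call also needs the same sign in every series used. Elavl4 was lower of 3 neuronal genes, and of 4 epicardial genes Tcf21 and Sema3d were higher and Tbx18 lower. Of all genes 2.36% were higher and 8.43% lower. The part these markers have in the results was not tested.

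A narrower comparison kept Acta2 and Sox10 alike and varied Dcn and Lum. Against the other Acta2-low cells, in series 3 (15 and 8 cells) and 7 (7 and 15 cells), 2 of 23 contractile genes were lower, Actg2 (−2.50) and Mylk (−2.39). Tagln had log2 ratios of −1.84 in series 3 and 1.35 in series 7, Myl9 of −0.44 and 0.54, and Tpm2 of −0.32 and 0.37. Each of the 3 was thus lower in series 3 and higher in series 7, and their means of −0.25, 0.05 and 0.03 average opposite signs. Of all genes 12.3% were higher and 12.5% lower, larger shares than above, where 3 series had to point the same way. Without series 3 the shares were 17.6% and 26.2%, and without series 7 they were 28.4% and 20.3%. Median genes detected at 200000 reads were 2676 and 2648 in series 3 and 3578 and 3590.0 in series 7.

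Some differences found against all other cells were also seen there. Tgfb3 (1.73), Papss2 (1.17), Cd44 (2.34) and Sema3d (2.44), a guidance ligand, were higher, while Bmp4 (−2.91), Fbln5 (−1.60), Lox (−1.51), Sfrp2 (−1.88), Hspg2 (−1.06) and Mcm5 (−2.34) were lower. Both comparisons use the same Dcn and Lum cells without Acta2, and the Acta2-low cells are part of the other cells, so these are not separate lines of evidence. Pdgfra did not pass (0.59, with −0.07 in series 7), and Col1a1 was lower (−1.10).

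Immediate early, innate and pericyte genes had calls here, in a comparison where only 2 series had to point the same way and more of all genes passed. Of 27 immediate early and heat shock genes 5 were higher and 0 lower, namely Hspa1b (3.43), Egr2 (1.78), Egr1 (1.35), Klf6 (1.25) and Fos (1.19), with a median of 0.47, which is 18.5% against 12.3% of all genes. From the chemokine, complement and innate list, Clu (3.23) and Ifitm3 (2.30) were higher. Of 6 pericyte genes 2 were higher, Pdgfrb (1.13) and Cspg4 (1.07). Of 30 cell cycle genes 8 were higher (26.7%, against 12.3% of all genes) and 3 lower, with a median of 0.45. The 8 were Cdk1 (2.43), Pcna, Ccnb2 (1.89), Rrm2, Rrm1, Aurka, Prc1 and Nusap1, which serve DNA synthesis and mitosis, and the 3 were Mcm5, Mcm7 and Cdt1. Of 6 genes of the dividing cell, 3 or more were at 10 CPM in 4 of 7 Dcn and Lum cells without Acta2 and 1 of 15 Acta2-low cells in series 7, and in 2 of 15 and 1 of 8 in series 3. Egr2, Klf6, Clu and the 8 higher cell cycle genes were named after their values were seen.

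The other narrower comparison kept Dcn and Lum alike and varied Acta2. Against Dcn and Lum cells with Acta2, in series 2 (16 and 16 cells), 3 (15 and 9) and 7 (7 and 7), 4.95% of all genes were higher and 6.56% lower, and without any 1 of these series 9.19% to 9.78% and 9.54% to 14.01%. Of 23 contractile genes 11 were lower, Acta2 among them, with Tagln at −2.53, Myl9 at −1.88 and Cnn1 at −2.38, and the median of the 23 was −0.93. Acta2 splits these 2 sets, so low values of genes that go with it follow in part from that choice. The Dcn and Lum cells without Acta2 are the same as above, and those with Acta2 are part of the other cells. This is thus not a separate line of evidence. Dcn and Lum themselves had ratios of 0.34 and 0.29 between the 2 sets.

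Of 16 elastic fibre genes 4 were lower in this comparison (25%, against 6.56% of all genes) and 0 higher, with Eln at −2.49 and Fbln5 at −2.07. Fbln5 had a lowest, median and highest level of 18.3, 2494 and 10642 CPM in the Dcn and Lum cells with Acta2 of series 2, against the 0, 52.6 and 3288 CPM given above for those without. Bmp4 (−3.80) and Lox (−1.26) were lower as well, while Pdgfra (1.29), Tcf21 (1.68), Tgfb3 (1.21), Papss2 (1.44) and the proteoglycan gene Aspn (1.79) were higher. Of 30 cell cycle genes 6 were lower (20%, against 6.56% of all genes) and 0 higher.
Fewer genes were detected in the Dcn and Lum cells without Acta2, with medians at 200000 reads of 3683 and 4165.5 in series 2, 2676 and 4355 in series 3 and 3578 and 5453 in series 7. Against all other cells the medians were 3683 and 4034, 2676 and 3379.5, and 3578 and 4181.5. The part this has in the lower calls was not tested.

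**Figure D5:**
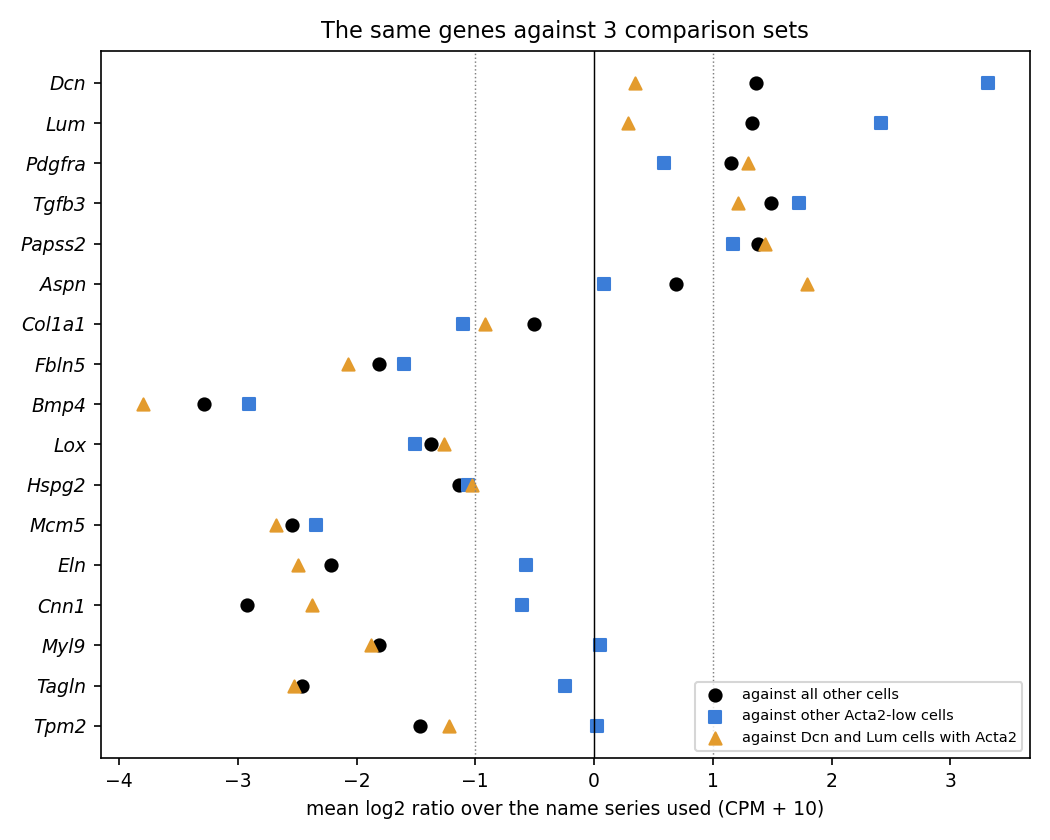
Mean log2 ratio (CPM + 10) of Dcn and Lum cells without Acta2 over all other cells (circle), other Acta2-low cells (square) and Dcn and Lum cells with Acta2 (triangle), for 17 genes. Tgfb3, Papss2, Fbln5, Bmp4, Lox, Hspg2 and Mcm5 lie past the dotted 2-fold lines on one side in all 3, while the means of Myl9, Tagln and Tpm2 against the Acta2-low cells average opposite signs, as −1.84 and 1.35 for Tagln.

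The share of called genes depended on how cells were averaged. With log2 values averaged over cells in place of the log2 of the mean, 0.157% of genes were higher and 1.25% lower against all other cells. Higher genes were thereby 11.1% of those called, in place of 21.9%. Against the Acta2-low cells they were 56.7% in place of 49.6%, and against Dcn and Lum cells with Acta2 4.57% in place of 42.97%. Leaving out any 1 of series 2, 3 and 7 gave 5.23% to 6.17% higher and 11.2% to 16.01% lower genes against all other cells.

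The genes with the most extreme ratios against all other cells were mostly found in few cells. The highest, 9830147E19Rik (2.47) and the GTPase regulator gene Tbc1d10a (2.13), were at 10 CPM in 9 and 10 of the 47 cells (19.1% and 21.3%) and in 10.1% and 12.2% of the others, and Dok5 (1.92) and Homer1 (1.77) in 14.9% and 23.4% against 4.76% and 11.1%. Among the 15 lowest were the adaptor gene Skap2 (−2.67), the transferrin gene Trf (−2.64) and the glycophorin gene Gypc (−2.57), with Skap2 at 10 CPM in 1 of 47 cells (2.13%) and 18.5% of the others.

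Series 1, kept apart, had 6 of these cells beside 52 others. Against those 52, 13 of 23 contractile genes were lower, with Tagln at −2.41 (62.5, 332.2 and 617.2 CPM against 16.9, 1022 and 9540.2 CPM) and Myl9 at −2.44. Acta2 (−5.12), which the rule fixed, is among the 13. Of all genes 17.9% were lower and 10.1% higher here, where 1 series alone sets no condition on sign. Eln (−2.76), Lox (−1.08) and Hspg2 (−1.36) were lower and Papss2 (2.56) higher, as in series 2, 3 and 7. Other called genes had the opposite sign in series 1, among them Bmp4 (1.09), Fbln5 (0.35), Tgfb3 (−0.48) and Sema3d (−2.98), and all of these are listed at the end. Abi3bp was at 415.95, 1122 and 2064 CPM in the 6 cells and at 6.58, 156.6 and 2748 CPM in the 52 others, a log2 ratio of 1.39 beside the 0.61 and −0.57 of series 2 and 3. Pdgfra had a log2 ratio of 0.62.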

How the data were processed

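The raw table deposited by the authors holds counts of reads for 15124 genes in 294 cells. Per the submitters' processing notes, HISAT2 2.1.0, featureCounts, Seurat and the mm10 build were used, while annotation and strand setting are not given in the sources used here. The second table deposited by the authors holds a score for 14051 genes, whole numbers with totals of 1110845 to 1216916 per cell, used here only as an alternative for choosing cells. There are no molecular identifiers, so counts are reads and not molecules. Overlapping genes and near-identical copies are uncertain.

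CPM was computed from the column totals (34046 to 3033857 reads). Per gene, log2((mean CPM + 10) ratio) was taken within each name series and averaged with equal weight over the series of 2 to 7 with at least 5 cells of each set, for the 9582 genes averaging at least 10 CPM there. The 53 members lay beside 241 other cells, 189 of them in series 2 to 7. The procedure was tested on simulated data. All 294 cells were 1 group, so no test was run. The level of 10 CPM counts as present, and intervals are exact Clopper-Pearson 95%. An upper limit for 0 cells is 3 cells of the set.

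The members and the 28 gene lists were chosen with earlier results of these data known. The text names the rule and marker genes, genes among the 15 highest and 15 lowest ratios (8 and 8 in the narrower comparisons) with the same sign of ratio and of share of cells in each series, and from each list genes among the 4 largest ratios and 2 highest levels, or other cell types' markers in 10% or more of members. Some genes named by this rule are not described. Alternatives changed the thresholds, the CPM added, the filter, the scaling (edgeR 4.0.16, TMMwsp), the averaging, the series used, the depth (200000 reads) and the table. Python 3.11.15, numpy 2.4.6, pandas 2.3.3, scipy 1.17.1, matplotlib 3.10.9 and R 4.3.3 were used. Some items are not reported here.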

Additional observations from a re-analysis of the deposited data

Results flagged for a closer look

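In sets of 4, 6 or 7 Dcn and Lum cells without Acta2, 3 of 24 combinations of set and measure had 1 cell far from its neighbours. The cut-off gives about 1 in 20 by chance only for normally distributed values. Whether these values are so distributed was not tested, so the count is not read as an excess. In series 1, 1 of 6 cells had 3115.905 CPM of Col1a1, with the next at 1017.407 CPM. In series 7, 1 of 7 cells had 15280.237 CPM of Lum, with the next at 2748.645 CPM. In series 7, 1 of 7 cells had 2494 genes detected, with the next at 4050.0. Each is given as a value only.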

How the results depend on the processing

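The number of Dcn and Lum cells without Acta2 was 54 with Dcn and Lum at 50 CPM and 50 at 200 CPM, 48 and 61 with Acta2 below 50 and 200 CPM, 55 with TMMwsp-scaled totals and 53, the same cells, from the score table. Leaving out a name series gave 37 to 51. No paired analysis was possible because the labels name no replicates shared between groups.

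The share of genes 2-fold or more apart moved most. Against all other cells, the 2.36% higher became 3.69% with 1 CPM added, 0.261% with 50 CPM, 0.157% with log values averaged, 4.16% with series pooled, 0.376% with series of 3 or more cells of each set and 5.23% to 6.17% without one series. The 8.43% lower became 12.8%, 0.511% and 1.25% under the first 3 of these, 5.61% with series of 3 or more cells and 11.2% to 16.01% without one series. Against Acta2-low cells, the 12.3% higher became 3.64% with 50 CPM, 4.03% with log values, 7.79% pooled, 1.63% with series of 3 or more cells and 17.6% to 28.4% without one series, and the 12.5% lower became 3.34%, 3.08%, 6.47% with series of 3 or more cells and 20.3% to 26.2%. Against Dcn and Lum cells with Acta2, the 4.95% higher became 0.605% with 50 CPM, 0.261% with log values, 8.60% pooled, 2.80% with series of 3 or more cells and 9.19% to 9.78%, and the 6.56% lower became 0.908% with 50 CPM, 3.85% with series of 3 or more cells and 9.54% to 14.01%. The cause was not tested, beyond that fewer series make the same-sign condition easier to meet and more series harder. Contractile genes lower than in all other cells numbered 8 to 16 in every alternative, and those lower than in Dcn and Lum cells with Acta2 6 to 13, the 6 with series of 3 or more cells. Elastic fibre genes lower than in all other cells numbered 2 to 4.

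Of 59 named genes called against all other cells, 56 kept their sign in every alternative but series 1 alone, which, like the contractile and elastic counts, was added after seeing the data. The exceptions were Epyc (0.20 with thinned reads), Cd44 (−0.70) and Elavl4 (0.022), both with series of 3 or more cells. In series 1 alone the sign was opposite for Ltbp1 (1.47), Bmp4 (1.09), Matn2 (1.00), Sfrp2 (0.84), Plat (0.67), Ccne2 (0.54), Fbln5 (0.35), Col14a1 (0.30), Foxp1 (0.17), Adamts5 (0.039), Col12a1 (0.023), Tgfb3 (−0.48), Cd44 (−0.50), Homer1 (−0.65), Dok5 (−0.84) and Sema3d (−2.98).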
